A study of Mus musculus with 8 samples.

Results

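The Myc, Max and Mxd network is described here by 10 genes, Myc, Mycn, Max, Mxi1, Mxd1, Mxd3, Mxd4, Mnt, Mga and Mlx, chosen by name. They are 10 of the 18193 genes on the array and had 26 of its 34945 probe sets with a single gene symbol. Myc and Mycn encode transcription factors that dimerise with Max, bind the E-box of promoters and enhancers and raise expression of genes for growth, ribosome assembly and the cell cycle. The Mxd proteins (Mxi1, Mxd1, Mxd3 and Mxd4) and Mnt bind the same sites with Max and recruit the Sin3 corepressor, and Mga ties Max to a variant Polycomb complex. Mlx is the Max-like partner of the glucose-sensing factors Mlxip and Mlxipl, and some Mxd proteins and Mnt can pair with it too. In the liver Myc is known as a driver of hepatocyte growth and of liver cancer.

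The samples were 8 Affymetrix mouse arrays of cultured hepatoblasts, the fetal precursors of hepatocytes and bile duct cells. The cells carried the surface protein Dlk and came from Ink4a-Arf-null livers of embryonic day 14.5, so both groups lacked Ink4a-Arf. After 12 to 18 h they were transduced with EGFP (4 arrays, the group labelled Control) or with Bmi1 (4 arrays, the group labelled Bmi1), and their medium held 50 ng/ml HGF with 20 ng/ml EGF. Transduced cells were sorted on day 28 of culture, and the RNA of 10000 cells went through a 2-cycle amplification. The comparison asks what Bmi1, a Polycomb complex 1 subunit, changes in cells without its best known target locus. Arrays of each group are numbered 1 to 4, for 4 independent experiments, and the labels name neither the vector nor its promoter. Each array measures a whole population, so fewer cells of a type and less RNA per cell cannot be told apart.

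The E-box that all these dimers read is CACGTG, which is its own reverse complement, and it lies in the promoters of several network genes themselves. RefSeq promoter windows (GRCm38.p6, 250 bases before to 50 after a start) were matched by symbol for 9 of the 10 genes, all but Myc. Of these genes 4 held the motif in a window, a share of 44.4%, against 8.09% of the 27025 genes with a window. The 4 stretches are shown because they give the place of the shared recognition sequence in the members' own promoters. Each runs 5′ to 3′ on the gene's strand over 60 bases, with the E-box in capitals.
Max, chr12:76962239-76962298, minus strand: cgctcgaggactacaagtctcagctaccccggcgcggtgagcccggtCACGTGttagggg
Mxd4, chr5:34187897-34187956, minus strand: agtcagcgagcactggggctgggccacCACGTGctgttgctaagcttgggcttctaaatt
Mnt, chr11:74830774-74830833, plus strand: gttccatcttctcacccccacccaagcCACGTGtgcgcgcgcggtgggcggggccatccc
Mlx, chr11:101087223-101087282, plus strand: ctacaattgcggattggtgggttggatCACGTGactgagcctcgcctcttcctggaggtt
The motif began 3 bases before the start in Max, 40 bases before it in Mlx, 123 in Mnt and 219 in Mxd4. It was also in the windows of 7 of 26 ribosome biogenesis genes and 8 of 22 metabolic and growth genes that Myc is known to induce. Among Myc coactivators it was in 1 of 17, and among proliferation genes in 1 of 19. The motif was not particular to the network and its induced targets. It was in 2 of 9 genes that Myc is known to hold down, 2 of 9 glucose-sensing targets of Mlx and 2 of 5 biliary markers. Of hepatoblast and hepatocyte markers 0 of 8 had it. A match is a description of these letters and not a site of binding.

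The arrays carry limits that touch every value below. Signal of the introduced gene Bmi1 was lower in the group labelled Bmi1, at 518 ± 218 in Control and 279 ± 60.01 in Bmi1 (SD, n = 4 each) for its brighter probe set. Both of its probe sets were lower in 4 of 4 pairs, and the brighter passed with the replicate number as a block (log2 difference -0.86, limma adjusted p = 0.0376), though not without it (adjusted p = 0.633). Directions below follow the labels, and which arrays hold more of the introduced gene is not settled by this signal. Signals are in the deposited units, in which the trimmed mean of each array is 100, and differences are on the scale of log2(signal + 3.78), Bmi1 minus Control. Arrays numbered 1 and 2 stood apart from those numbered 3 and 4, with the BioC 3′ hybridisation control between 198 and 274 on the former and between 97.0 and 119 on the latter. Arrays of the same number also deviated together, so each comparison is given without and with the replicate number as a block. All 8 hepatoblast and hepatocyte markers with a probe set of 1 symbol, Dlk1, Alb and Afp among them, were above background on all 8 arrays. Of the 8, 7 were lower in Bmi1 (median -0.18), while with the block 0 passed downward and 1 upward. Fibroblast and stellate cell markers summed to 5471 to 17185 in Control and to 3804 to 9121 in Bmi1 over 12 genes (11 lower, median -0.96), highest on Control 1 and lower in the Bmi1 array of all 4 pairs. Biliary markers ran from 1490.0 to 2559 and from 2574 to 3163, and endothelial markers, 2 of 8 at background, from 119 to 238 and from 244 to 352. Only 3 of the endothelial genes were bright enough to be tested, 2 higher and 1 lower, and 1 passed upward with the block. Their median was 0.48, 0.83, -0.22 and 0.0081 in pairs 1 to 4. Sums of mesothelial markers ran from 107 to 561 in Control and from 44.1 to 153 in Bmi1, and those of erythroid markers from 1264 to 2354 and from 572 to 1273. Both sums were lower in Bmi1 in all 4 pairs. The 5 mesothelial genes were lower (median -0.86), but their median by pair was -1.18, -0.81, 0.32 and -1.09, so pair 3 went against the sum. Of the 4 erythroid genes 1 was at background on all arrays, and of the 2 tested 1 was higher and 1 lower. Macrophage and blood markers ran from 532 to 2799 and from 667 to 2481. The part of these other cells in the values below was not tested. Control 1 also had a Gapdh 3′ over 5′ ratio of 3.10, against 1.65 to 1.96 elsewhere.

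No gene of the network rose or fell between the groups by the test. Of the 26 probe sets 22 passed the level filter, a mean at or above the 40th percentile of the array, and were tested, at least 1 for each gene. Of these 10 were higher and 12 lower in Bmi1 with a median log2 difference of -0.061. In limma 0 of them passed an adjusted p of 0.05 (Benjamini-Hochberg over all tested probe sets) without the block and 0 with it, where 0.0444% and 1.78% of the 27022 tested probe sets passed. At an unadjusted p under 0.05 there were 2 without the block and 3 with it, or 9.09% and 13.6% of the tested members, beside 5.02% and 13.6% of all tested probe sets. The smallest adjusted p was 0.650 without the block and 0.188 with it, both for Max. The 95% intervals lay within 2-fold either way, 1 unit on the log2 scale, for 14 of the 22 probe sets without the block and for 17 with it. The other intervals reach past 2-fold. The direction of the deposited signal was the same in 4 of 4 pairs for 3 of the 22 (13.6%), where 22.4% of all tested probe sets had that. Leaving out Control 1, or any other single array, also gave 0 calls, with 1 to 3 members at an unadjusted p under 0.05.

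**Figure D1:**
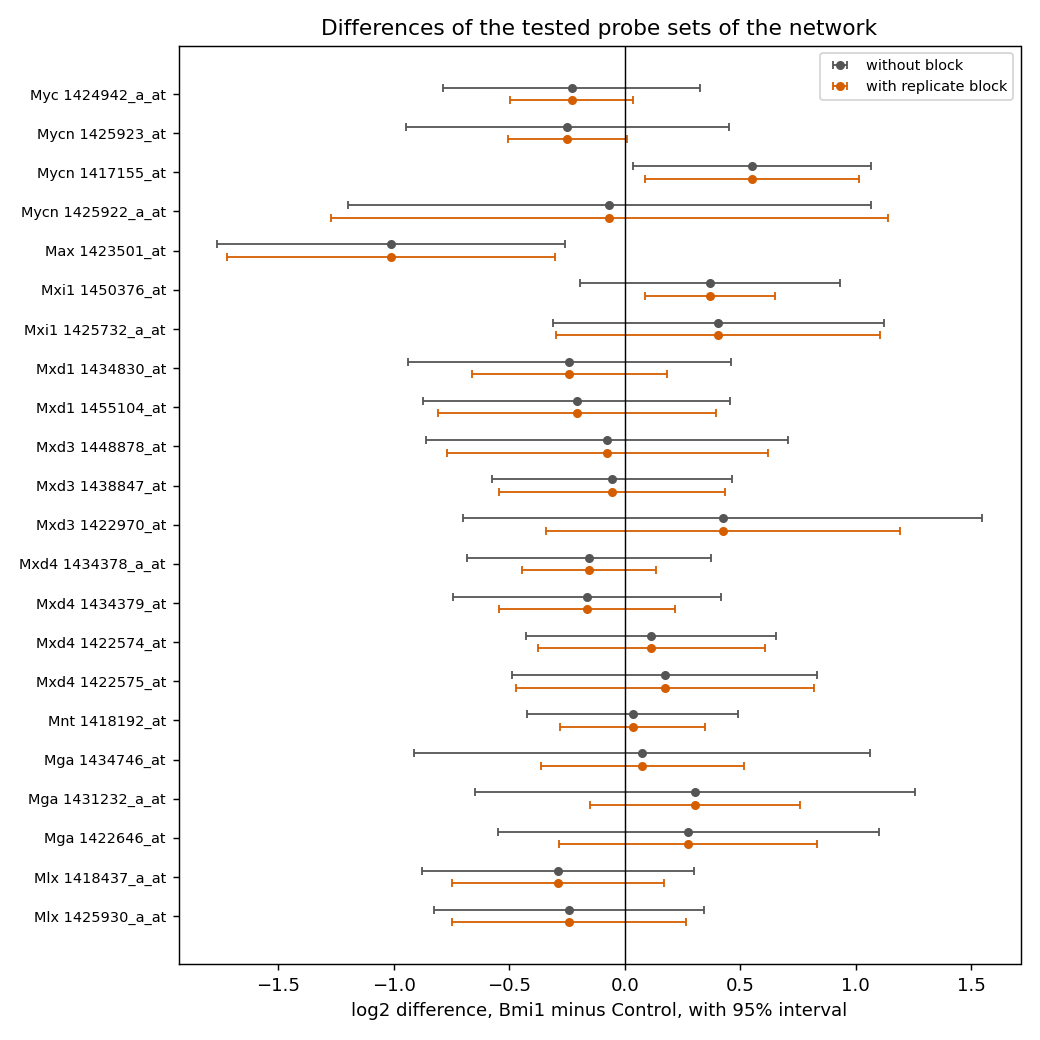
Log2 difference, Bmi1 minus Control, of each of the 22 tested probe sets of the network (points) with its 95% interval from limma (bars), without a block in grey and with the replicate block in orange. The lowest point is Max at -1.01, and the Mycn probe set 1417155_at stands highest at 0.55, while 20 of the 22 lie within 0.5 of 0.

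Myc, the growth-promoting member, had a bright signal and did not pass the test. Its single probe set 1424942_a_at, whose suffix marks probes shared by transcripts of the same gene, read 249, 401, 462 and 368 on Control arrays 1 to 4 and 255, 343, 377 and 304 on Bmi1 arrays 1 to 4. The groups overlapped, and in deposited signal the Bmi1 array was the lower in 3 of 4 pairs and slightly the higher in pair 1. With arrays centred on the median of the tested probe sets, the pairs differed by -0.073, -0.21, -0.33 and -0.31 on the log2 scale. The direction of pair 1 thus depends on the centring. The log2 difference was -0.23 (SE 0.25, 95% interval -0.79 to 0.33, limma adjusted p = 0.9998). With the replicate block the difference had SE 0.12, interval -0.50 to 0.038, adjusted p = 0.455. It pointed down among both sets of numbers, at -0.14 for numbers 1 and 2 and -0.32 for 3 and 4. Its group means were 369.8 ± 89.8 and 319.8 ± 52.5 (SD, n = 4 each).

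Mycn, the fetal and progenitor paralog of Myc, had 3 tested probe sets that differed in direction and in level. Their mean levels lay at percentiles 99.7, 77.8 and 43.6 of the array, so the level of Mycn RNA cannot be read from 1 of them. The probe set 1425923_at read 3280.5, 3008, 4573 and 4592 in Control and 2396, 2257, 4409 and 4907 in Bmi1, and its mean level lay at percentile 99.7 of the array. It was lower in Bmi1 in pairs 1 to 3 and higher in pair 4, with overlapping groups. On the log2 scale the difference was -0.25 (SE 0.32, 95% interval -0.95 to 0.45, limma adjusted p = 0.9998), and with the block SE 0.11, interval -0.50 to 0.0085, adjusted p = 0.389. It was -0.48 for numbers 1 and 2 and -0.016 for numbers 3 and 4. The probe set 1417155_at went the other way, at 127, 107, 70.5 and 61.6 in Control and 138, 124, 135 and 141 in Bmi1. The Bmi1 arrays lay close together while Control 3 and 4 were well under Control 1 and 2, and the Bmi1 array was higher in 4 of 4 pairs, with overlapping groups. Of all tested probe sets 13% were higher in 4 of 4 pairs. In limma its log2 difference came to 0.55 (SE 0.23, 95% interval 0.034 to 1.07, limma adjusted p = 0.915), and with the block SE 0.20, interval 0.086 to 1.01, adjusted p = 0.275. The difference was 0.12 for numbers 1 and 2 and 0.98 for numbers 3 and 4, and whether those differ was not tested. The dim probe set 1425922_a_at read 16.2, 22.7, 1.77 and 7.06 in Control and 4.09, 8.54, 18.3 and 10.1 in Bmi1, with 3 arrays of each group above background. It was lower in Bmi1 in pairs 1 and 2 and higher in pairs 3 and 4, its interval ran from -1.20 to 1.06, and its sign turned when arrays were centred on all probe sets.

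Max, the shared partner of Myc and of the Mxd proteins, had the largest difference of the network and a dim signal. Its only probe set, 1423501_at, read 15.5, 20.2, 16.9 and 19.6 in Control and 5.71, 14.8, 8.43 and 3.30 in Bmi1. All 4 Bmi1 arrays lay below all 4 Control arrays, the one case among the 22 members, which is 4.55% of them, where 3.76% of tested probe sets had groups apart and 1.43% had Bmi1 below. Lower signal in 4 of 4 pairs, which Max had too, was seen at 9.46%. Bmi1 minus Control gave a log2 difference of -1.01 (SE 0.34, 95% interval -1.77 to -0.26, limma adjusted p = 0.650), and with the numbers as a block it had SE 0.31, interval -1.72 to -0.30, adjusted p = 0.188, so the difference did not pass in either fit. All 4 Control arrays and 2 of 4 Bmi1 arrays were above the background read from Bacillus control probe sets, which ran from 4.09 to 9.97 over the arrays. It stood at -0.74 for numbers 1 and 2 and at -1.28 for 3 and 4. Over 28 other settings it ran from -1.28 to -0.57, with 0 past the threshold.

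**Figure D2:**
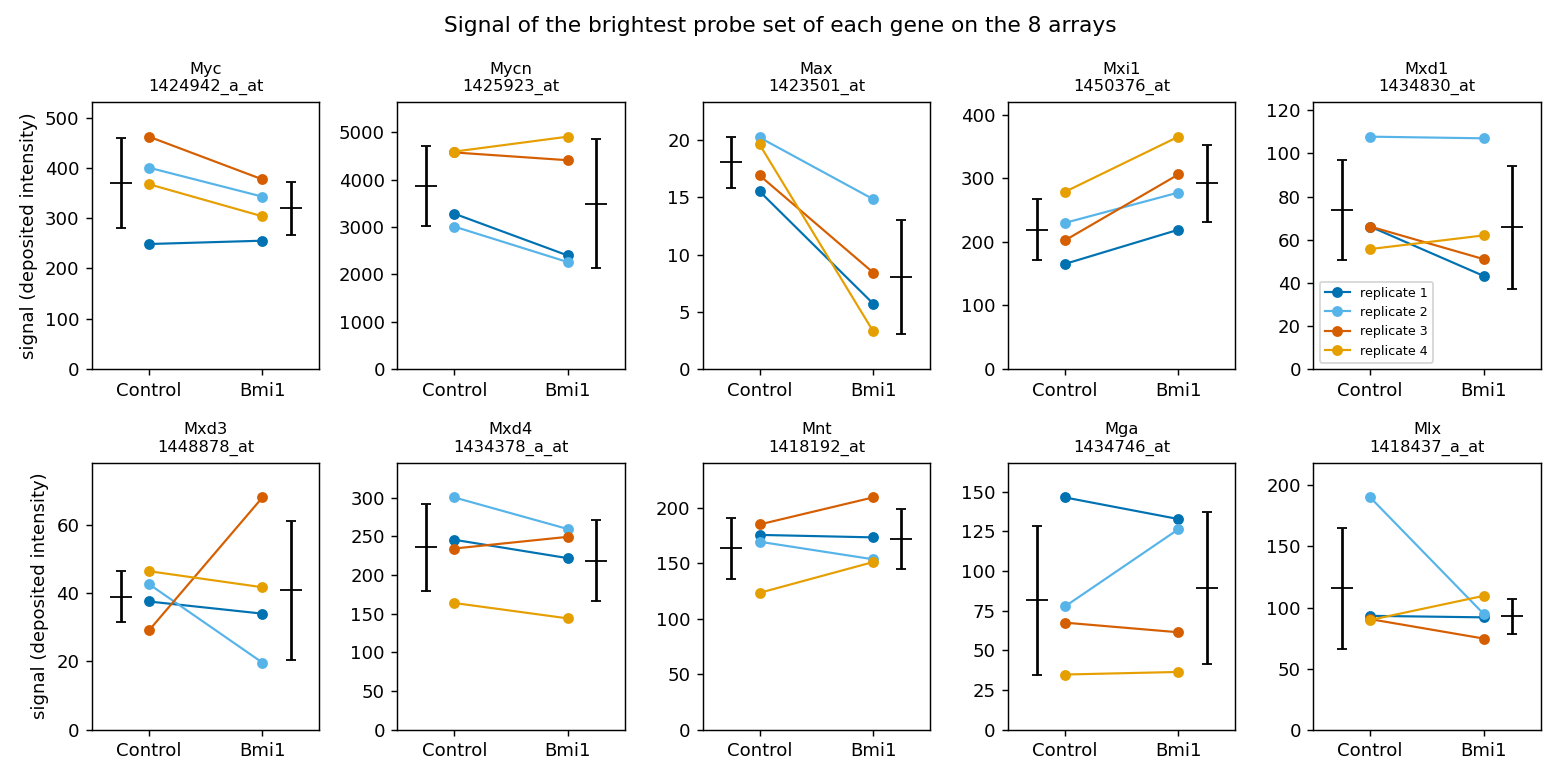
Deposited signal of the brightest probe set of each of the 10 genes (linear axis from 0) on Control and Bmi1 arrays, with lines joining arrays of the same replicate number, and black marks for the mean ± SD of 4 arrays. The Max groups do not overlap, Mxi1 slopes up in all 4 pairs, and the other 8 genes have lines in both directions.

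Of the Mxd repressors, Mxi1 (Mxd2), which counters Myc on shared sites, had the most regular difference. Its brighter probe set 1450376_at read 165, 230.0, 202 and 279 in Control and 219, 278, 306 and 366 in Bmi1. Each Bmi1 array was above the Control array of its number, by 0.29, 0.29, 0.55 and 0.35 on the log2 scale in pairs 1 to 4, while the groups overlapped. The log2 difference was 0.37 (SE 0.25, 95% interval -0.20 to 0.93, limma adjusted p = 0.9998), and with the block SE 0.12, interval 0.087 to 0.65, adjusted p = 0.228. It kept its sign in all 31 other settings, from 0.22 to 0.54, with 0 past the threshold. The second probe set, 1425732_a_at, read 12.3, 22.7, 5.51 and 10.7 in Control and 20.9, 15.5, 17.5 and 15.8 in Bmi1, and was higher in 3 of 4 pairs (0.41, SE 0.32). This dim probe set was above background on 3 Control and 4 Bmi1 arrays, and its 95% interval ran from -0.31 to 1.12. Its difference was 0.033 for numbers 1 and 2 and 0.78 for numbers 3 and 4. Both Mxi1 probe sets thus pointed up on average, and neither passed the test.

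Mxd1 (Mad1), which is known to rise as cells leave the cycle and differentiate, overlapped between the groups at both tested probe sets. The brighter, 1434830_at, read 66.0, 108, 66.1 and 55.6 in Control and 43.1, 107, 50.9 and 62.0 in Bmi1, with number 2 the highest in both groups. On the log2 scale the difference was -0.24 (SE 0.32, 95% interval -0.94 to 0.46, limma adjusted p = 0.9998). The probe set 1455104_at read 16.9 to 22.9 in Control and 10.5 to 28.1 in Bmi1, a log2 difference of -0.21 (SE 0.30). The third, 1422002_at, was not above background on any array, so no fold is given for it.

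Mxd3 (Mad3), the Mxd gene linked to S phase, had 3 tested probe sets that differed in sign. The brightest, 1448878_at, read 37.5, 42.6, 29.0 and 46.4 in Control and 33.96, 19.6, 68.0 and 41.7 in Bmi1. Bmi1 3 was the highest of the 8 arrays and Bmi1 2 the lowest, so the groups overlapped fully. In limma its log2 difference came to -0.075 (SE 0.35, 95% interval -0.86 to 0.71, limma adjusted p = 0.9998). The difference was -0.61 within numbers 1 and 2 and 0.46 within 3 and 4, and it turned sign when arrays were centred on all probe sets, as did that of 1438847_at. For 1438847_at the means were 30.3 ± 3.98 and 30.2 ± 5.51, and for 1422970_at they were 18.7 ± 14.2 and 22.7 ± 6.07 (SD, n = 4 each).

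Mxd4 (Mad4), another repressor of the family, had 4 tested probe sets and overlapping groups at each. The brightest, 1434378_a_at, read 246, 300.4, 234 and 164 in Control and 222, 259.5, 249 and 144 in Bmi1, and number 4 was the lowest in both groups. Bmi1 minus Control gave a log2 difference of -0.15 (SE 0.24, 95% interval -0.68 to 0.37, limma adjusted p = 0.9998), and with the block SE 0.13, interval -0.44 to 0.14, adjusted p = 0.667. The next, 1434379_at, read 59.4, 88.8, 95.4 and 50.6 in Control and 69.1, 63.5, 79.8 and 51.4 in Bmi1, with overlapping groups and a log2 difference of -0.16 (SE 0.26). The dimmer pair, 1422574_at and 1422575_at, had log2 differences of 0.11 (SE 0.24) and 0.17 (SE 0.30), so the probe sets of Mxd4 did not share a sign.

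Mnt, the broadly expressed repressor that competes with Myc for Max, had the smallest difference of the brightest probe sets. Its probe set 1418192_at read 176, 169, 185 and 123 in Control and 173, 154, 209 and 151 in Bmi1. The log2 difference was 0.034 (SE 0.21, 95% interval -0.42 to 0.49, limma adjusted p = 0.9998), and with the block SE 0.14, interval -0.28 to 0.35, adjusted p = 0.948. Within numbers 1 and 2 it was -0.12 and within 3 and 4 it was 0.19. The other probe set, 1418193_at, was at 0.354 to 6.84 in Control and 0.587 to 1.10 in Bmi1, not above background on any array.

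Mga, the large scaffold protein that brings Max into the variant Polycomb complex PRC1.6, had overlapping groups at every tested probe set. Its brightest probe set, 1434746_at, read 146, 77.6, 67.4 and 34.7 in Control and 133, 126, 61.4 and 36.4 in Bmi1. On the log2 scale the difference was 0.075 (SE 0.45, 95% interval -0.91 to 1.06, limma adjusted p = 0.9998), and with the block SE 0.19, interval -0.36 to 0.52, adjusted p = 0.911. The probe set 1431232_a_at read 90.0, 53.4, 51.7 and 21.5 in Control and 116, 89.3, 44.4 and 32.9 in Bmi1. In limma its log2 difference came to 0.30 (SE 0.43, 95% interval -0.65 to 1.26, limma adjusted p = 0.9998), and with the block SE 0.20, interval -0.15 to 0.76, adjusted p = 0.566. The third, 1422646_at, read 32.7, 23.1, 11.9 and 12.1 in Control and 31.8, 38.8, 11.8 and 21.1 in Bmi1, a log2 difference of 0.27 (SE 0.37). The remaining 2 lay under the level filter. Of these 1442356_at was above background on 2 Control and 3 Bmi1 arrays, and 1433012_at on 1 Bmi1 array.

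Arrays numbered 3 and 4 differed from those numbered 1 and 2 for several members. With both groups in the model, 4 of 22 member probe sets (18.2%) passed in limma, below the 26.7% of all tested probe sets. The 3 tested Mga probe sets were lower on numbers 3 and 4, by log2 differences of -1.09, -1.01 and -0.85 (adjusted p = 0.0153, 0.0220 and 0.0301). The mean of 1434746_at was 121 on the arrays numbered 1 and 2 and 50.0 on the others. The Mycn probe set 1425923_at was higher on numbers 3 and 4, at 4620.3 against 2735 (log2 difference 0.91, adjusted p = 0.00101). The other 2 tested Mycn probe sets did not share this and did not pass. Of these 1417155_at was at -0.22 and 1425922_a_at at -0.23 (limma adjusted p = 0.457 and 0.770). The labels give no batch, so the numbers stand here only for the independent experiments.

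**Figure D3:**
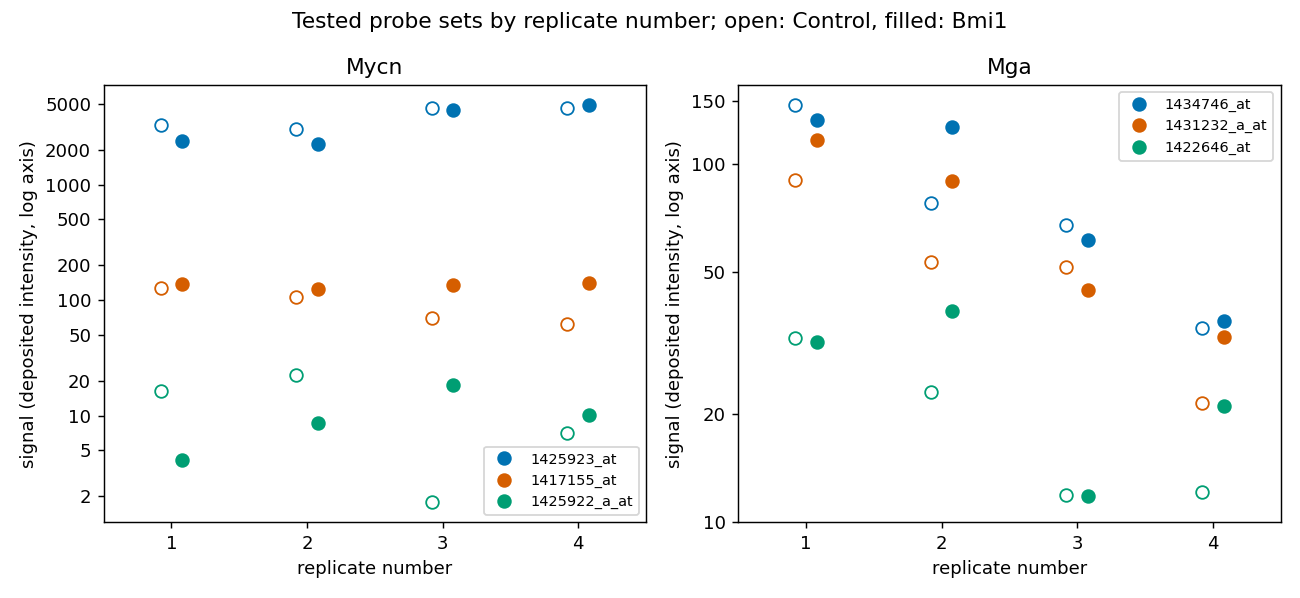
Deposited signal (log axis) of the tested probe sets of Mycn (left) and Mga (right) by replicate number, with open circles for Control and filled circles for Bmi1. The 3 Mga probe sets are lower on numbers 3 and 4 in both groups, the Mycn probe set 1425923_at is higher there, and 1417155_at has filled circles above open ones at all 4 numbers.

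Mlx, the Max-like partner of the glucose sensors, was lower on average in Bmi1 at both probe sets without passing the test. The probe set 1418437_a_at read 93.2, 190.2, 90.5 and 89.8 in Control and 92.0, 94.7, 74.6 and 109.6 in Bmi1, where Control 2 stood far above the other 3 Control arrays. Bmi1 minus Control gave a log2 difference of -0.29 (SE 0.27, 95% interval -0.88 to 0.30, limma adjusted p = 0.9998), and with the block SE 0.20, interval -0.75 to 0.17, adjusted p = 0.595. Without Control 2 the log2 difference was -0.052. The probe set 1425930_a_at read 31.9, 42.0, 32.7 and 55.9 in Control and 31.9, 36.5, 39.3 and 29.2 in Bmi1, and its groups overlapped as well (-0.24, SE 0.26). Here Control 4 was the highest array, and without it the difference was -0.066, so the sizes at both probe sets rest on 1 Control array each.

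Genes that work with the network, or that it is known to regulate, were counted in 10 lists by their probe set of highest mean level. Over all 12694 genes counted this way 49.6% were higher in Bmi1, the median log2 difference was -0.0031, and 0.0788% passed in limma without the block and 2.85% with it, 1.48% downward. Without the block 0 of the 157 tested list genes passed, with 2 at an unadjusted p under 0.05. With the block 2 passed, G6pc and Gadd45a, with 26 at an unadjusted p under 0.05. Of all 27022 tested probe sets 1356 (5.02%) had such a p without the block and 3669 (13.6%) with it. In the block fit with 1 probe set per gene it was 19 of 154 list genes, beside 1966 of all 10916 genes. Over the 31 other settings the median kept its sign in 4 lists, those of the other family members, the Sin3 complex, genes repressed by Myc and glucose-sensing targets, and crossed 0 in the other 6.

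No partner of Myc or Mlx passed the test. The 3 other factors of the family, Mycl, Mlxip and Mlxipl, were all higher in Bmi1 (median 0.36). Of these Mycl was dim, above background on 2 Control and 3 Bmi1 arrays, and its difference was -0.36 for numbers 1 and 2 against 1.29 for 3 and 4, while Mlxipl was at -0.083 in numbers 3 and 4 alone. The glucose sensor Mlxip read 58.5 ± 11.7 in Control and 77.5 ± 6.08 in Bmi1 (0.36, SE 0.22), with all 4 Bmi1 arrays above all Control arrays. Of 17 Myc coactivators 10 were higher and 7 lower (median 0.12). Ruvbl2, an ATPase of chromatin remodelling complexes, read 247 ± 34.3 in Control and 325 ± 22.4 in Bmi1 (0.36, SE 0.19), and its groups did not overlap either. Such separation upward was seen at 2.32% of all tested probe sets. Kat2a, a histone acetyltransferase, read 203 ± 69.7 in Control and 275 ± 81.0 in Bmi1 (0.41, SE 0.33).

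Of 14 tested Sin3 complex genes, the corepressors that Mxd proteins recruit, 12 were higher and 2 lower, with a median of 0.13 and 0 passing in either fit. The median was -0.095, 0.28, 0.11 and 0.022 in pairs 1 to 4, so pair 1 ran the other way and pair 4 was near 0. Sin3a, the scaffold of the complex, read 208 ± 18.7 in Control and 251 ± 8.70 in Bmi1 (0.23, SE 0.18). Its groups did not overlap, as was seen upward at 2.32% of all tested probe sets. Hdac1, a histone deacetylase, read 769 ± 203 in Control and 941 ± 164 in Bmi1 (0.27, SE 0.25). In the complex of Mga 8 of 12 genes were higher and 4 lower (median 0.081). Cbx3, a heterochromatin protein, read 15.2 ± 4.04 in Control and 7.57 ± 2.34 in Bmi1 (-0.78, SE 0.30). All its Bmi1 arrays lay below all Control arrays at this dim probe set, with 2 of the Bmi1 arrays above background. Such separation downward was seen at 1.43% of all tested probe sets. Among 16 genes of Myc turnover 9 were higher and 7 lower (median 0.082), and the named ones were Usp28, a deubiquitinase that spares Myc, at 0.51 (SE 0.29), and Skp2, a ubiquitin ligase subunit, at -0.43 (SE 0.33). None of these genes passed with or without the block.

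No target in the lists that Myc is known to induce passed in either fit. Of 32 ribosome biogenesis genes 20 were higher and 12 lower, with a median of 0.067. Rrp9, a protein of the small nucleolar RNA machinery, read 86.2 ± 23.1 in Control and 122 ± 7.13 in Bmi1 (0.48, SE 0.24). Its groups did not overlap, as was seen upward at 2.32% of all tested probe sets. Fbl, the methyltransferase fibrillarin, read 604 ± 122 in Control and 789 ± 129 in Bmi1 (0.35, SE 0.23). Of 23 metabolic and growth genes 14 were higher and 9 lower (median 0.033). Tfrc, the transferrin receptor, read 1215 ± 254 in Control and 1636 ± 182 in Bmi1 (0.40, SE 0.20). Ccnd2, a D-type cyclin, read 1618 ± 306 in Control and 2296 ± 764 in Bmi1 (0.43, SE 0.26), and of the settings tried it passed only in the block fit without pair 1 (adjusted p = 0.0321). Proliferation genes were higher for 19 of 22 (median 0.27), with medians of 0.40, 0.37, 0.48 and -0.21 in pairs 1 to 4, so pair 4 ran the other way. Top2a, the topoisomerase of dividing cells, read 430.2 ± 179 in Control and 642 ± 172 in Bmi1 (0.61, SE 0.37), and Cdc20, an activator of mitotic exit, read 866 ± 406 in Control and 1158 ± 484 in Bmi1 (0.39, SE 0.41). Of these genes Top2a came nearest, at an adjusted p of 0.103 with the block.

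Of 11 genes that Myc is known to hold down 9 were lower in Bmi1, and their median difference was -0.15. By pair the median was -0.65, 0.10, -0.11 and -0.085, so pair 2 ran the other way and pair 1 had the largest shift. Gadd45a, a growth arrest gene, read 511, 511, 106 and 142 in Control and 232, 355, 51.1 and 54.7 in Bmi1. The Bmi1 array was lower in 4 of 4 pairs, numbers 1 and 2 were far above 3 and 4 in both groups, and the groups overlapped. Gadd45a fell with the replicate block (log2 difference -1.03, SE 0.17, limma adjusted p = 0.0217) and did not pass without it (adjusted p = 0.9998). Without pair 1, 3 or 4 its adjusted p with the block was 0.0727, 0.0893 and 0.0812, and with arrays centred on all probe sets 0.0514. The difference stayed at -0.97, -1.03 and -0.93 without those pairs and at -0.93 with that centring, so its size changed little among these block fits. Without the level filter its adjusted p with the block was 0.0710. Over all 31 other settings, with or without a block, the difference of Gadd45a ran from -1.53 to -0.42, the latter with array weights. It passed in 6 of them. The fibroblast and stellate markers were lower in Bmi1 in the same 4 pairs, with medians of -3.37, -0.072, -0.48 and -0.36 in pairs 1 to 4. Gadd45a differed by -1.24, -0.50, -1.04 and -1.36 in these pairs. The part of those cells in its fall was not tested. Of the 10 glucose-sensing targets of Mlx 7 were higher and 3 lower (median 0.16). G6pc, the glucose phosphatase of hepatocytes, read 452, 910.4, 457 and 274 in Control and 175, 293, 108 and 146 in Bmi1, with every Bmi1 array under that of its number. It fell with the block (-1.52, SE 0.18, adjusted p = 0.00776) and did not pass without it (adjusted p = 0.293). With the block it passed whichever pair was left out. Beside it, hepatoblast and hepatocyte markers were lower for 7 of 8 (median -0.18) and biliary markers higher for 5 of 5 (median 0.30). With the block 1 hepatoblast and hepatocyte marker passed upward and 0 downward, and the median of that list in pair 2 was 0.11. Of the biliary markers 1 passed with the block, upward. The part of both lists in the fall of G6pc was not tested.

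**Figure D4:**
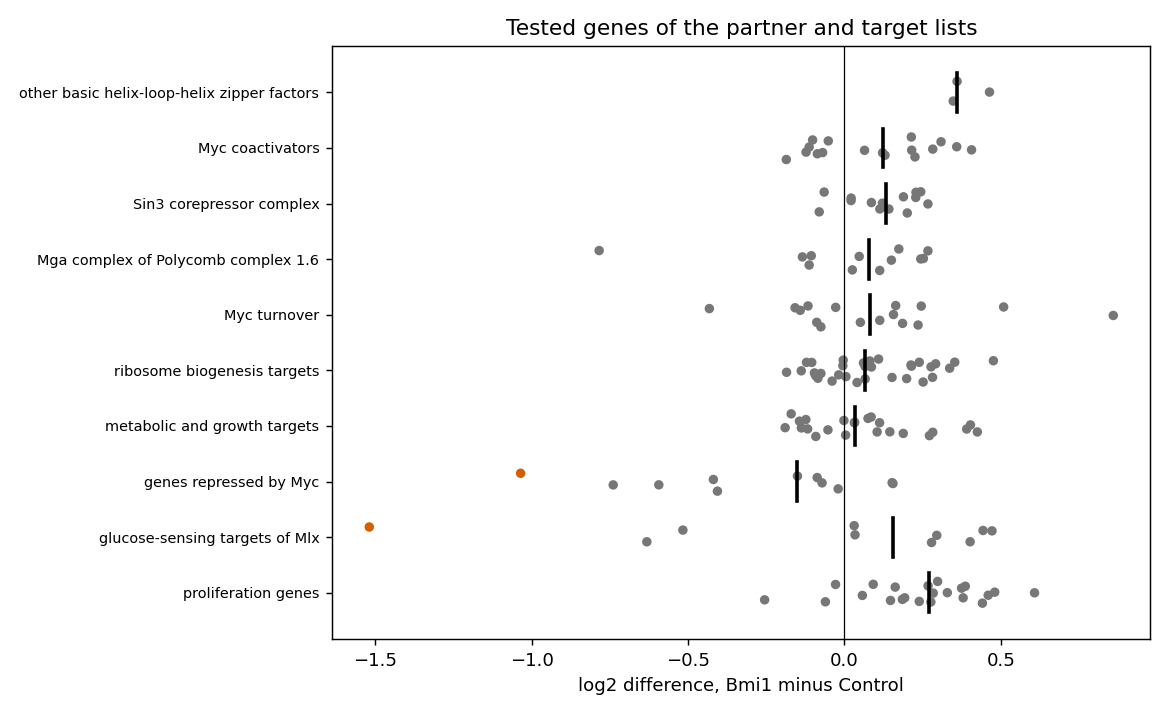
Log2 difference, Bmi1 minus Control, of each tested gene (points) in the 10 lists of partners and targets, with the median of each list as a black bar and genes that passed with the replicate block in orange. The medians lie between -0.15 and 0.36, and the orange points are G6pc at -1.52 and Gadd45a at -1.03.

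The genes whose centred log2 values followed Myc most closely over the 8 arrays were listed as a description, out of 22926 probe sets of other genes. They were Fyn (Pearson r = 0.98, Spearman rho = 1), Ube2d-ps (r = 0.98), Atxn7l2 (r = 0.97), Ptpmt1 (r = 0.97) and Commd4 (r = 0.97). Fyn, a Src-family tyrosine kinase, ran from 147 on Control 1 to 179.7 on Control 3, the lowest and highest arrays for Myc as well. With 8 arrays that share replicate numbers and so many probe sets, values this high are no test of a relation.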

How the data were processed

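Signal intensities of 45101 probe sets on 8 Affymetrix mouse arrays were used as deposited by the authors. Which software summarised the probes is not stated in those sources, and each array's mean, trimmed by 2% at each end, is 100. Gene names came from the platform annotation, in which 34945 probe sets have 1 symbol, 932 have several and 9160 have none, and 64 are controls. The deposited intensity was turned here into log2(signal + 3.78), where the pseudocount is the median signal divided by 4, so fold changes of dim probe sets are understated.

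Probe sets whose mean lay at or above the 40th percentile were tested (27022), arrays were centred on their median, and limma 3.58.1 in R 4.3.3 (lmFit, eBayes with trend, two-sided) compared 4 Control with 4 Bmi1 arrays at a Benjamini-Hochberg threshold of 0.05. Probe sets of a gene were kept apart, and a list gene entered with its brightest probe set. Background is the 95th percentile of 27 Bacillus control probe sets, between 4.09 and 9.97. The number of arrays limits the precision.

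The replicate numbers come from the titles of independent experiments. Deviations from the group means correlated between arrays of the same number at 0.56, 0.33, 0.47 and 0.64, and the fit with the number as a block is given beside the other. Bmi1 2 correlated more with Control 1 (0.40) than with Control 2 (0.33), so the numbers pair the arrays only in part. Within numbers 1 and 2 and within 3 and 4 the correlations between arrays of the same number were 0.22 and 0.28.

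From each list the called genes were named, up to 4, or else the 2 with the smallest p with the block, and for Myc the 5 most correlated probe sets. Members and lists were chosen with earlier results of these data known. Promoter windows are RefSeq's. Other settings are in the closing section. Of the steps, only limma fits of the same form, without and with the block and with no centring, were also run on simulated data.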

Additional observations from a re-analysis of the deposited data

Results flagged for a closer look

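Among 52 groups of 4 arrays, 1 for each member probe set and group, an array stood apart from the other 3 by Dixon's criterion in 2 cases, and chance gives about 1 in 20. The Mlx probe set 1418437_a_at read 190.2 on Control 2, with 93.2 on the nearest array, a gap of 0.966 of the group's range. The Mga probe set 1433012_at, which was under the level filter, read 6.27 on Bmi1 4, with 1.59 on the nearest array, a gap of 0.864 of the range.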

How the results depend on the processing

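No member probe set passed in any of the 31 other settings, of which 5 were chosen after seeing the data, and 11 of the 22 kept their sign in each setting in which they were tested. The other 11 turned in at least 1, with 0 of the 47 turned values past the threshold. The largest of these differences was 0.42 in the comparison as reported. With numbers 1 and 2 alone Mxd4 1422574_at was -0.033 and Mnt -0.12. With numbers 3 and 4 alone Mycn 1425922_a_at was 1.14, Mxd3 1448878_at 0.46, Mxd4 1422575_at -0.10, Mga 1434746_at -0.072 and the list gene Mlxipl -0.083. Centring on all probe sets, or testing all of them, gave 0.036 for Mycn 1425922_a_at, 0.027 for Mxd3 1448878_at and 0.045 for Mxd3 1438847_at, with the block or without. Mycn 1425922_a_at was 0.059 after quantile normalisation, with the block too, 0.0076 with a lower pseudocount and 0.57 with array weights, which gave -0.027 for Mnt and -0.073 for Mlxipl. Leaving out arrays or pairs gave the ranges Mycn 1425922_a_at -0.74 to 0.40, Mxd1 1455104_at -0.37 to 0.0042, Mxd3 1448878_at -0.46 to 0.22, Mxd3 1438847_at -0.21 to 0.084, Mxd3 1422970_at -0.075 to 0.83, Mxd4 1434378_a_at -0.29 to 0.0079, Mxd4 1422575_at -0.074 to 0.42, Mnt 1418192_at -0.086 to 0.12, Mga 1434746_at -0.23 to 0.40 and Mga 1431232_a_at -0.022 to 0.57. With 1 probe set per gene 9 member genes were tested, without Max. The causes were not tested.

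The count over all tested probe sets was 12 as reported, 481 with the replicate block, 203 with a block for numbers 1 and 2 against 3 and 4, and 0 in limma for numbers 1 and 2 or 3 and 4 alone, with 1440 and 2098 at an unadjusted p under 0.05. It was 7 with a lower pseudocount, 1 with a filter at the 60th percentile and 36 with array weights. With the block it was 510 without centring, 561 with centring on all probe sets, 432 after quantile normalisation, 396 without a filter and 363 with 1 probe set per gene. Without the block, leaving out 1 array gave 0 to 14, with 0 in limma without Control 2 or 3 or Bmi1 2, 3 or 4 (947 to 1395 at an unadjusted p under 0.05). With the block, leaving out a pair gave 115 to 293, the fewest without pair 3. Of the list genes 0 passed as reported, and 2 with the replicate block or the block for numbers 1 and 2 against 3 and 4. With the block there were 2 without centring, 2 after quantile normalisation and 2 with 1 probe set per gene, and 1 each with centring on all probe sets and without a filter. Leaving out 1 array without the block gave 0, and a pair with the block 1 to 2. The block of replicate numbers changed no member's call. The signal of Max lies near background, which limits its precision.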
